A study of Mus musculus with 18 samples.

Results

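The proteasome genes of mouse macrophages were followed through stimulation with lipopolysaccharide (LPS) and pretreatment with high-density lipoprotein. They were taken by name: every gene symbol that starts with Psma, Psmb, Psmc, Psmd or Psme followed by a digit, without the 3 interferon-inducible subunits Psmb8, Psmb9 and Psmb10. This gave 42 of the 24059 gene symbols in the count tables. By known role they were 8 genes of the alpha rings and 8 of the beta rings of the 20S core, 6 ATPases and 11 other subunits of the 19S cap, 3 chaperones of cap assembly, and 5 genes of other activators. The last, Psmc3ip, carries the letters because its protein binds that of Psmc3, and it is known for a role in meiotic recombination.

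Macrophages were grown from the bone marrow of C57BL/6J mice for 7 days in L929-conditioned medium. The second count table held 4 groups, all stimulated with LPS: cholesterol loading with liposomes of POPC and cholesterol followed by reconstituted high-density lipoprotein (rHDL) for 20 h, loading without rHDL, rHDL without loading, and LPS with neither. The rHDL, CSL111, combines APOA1 with soybean phosphatidylcholine at 1 to 150, and it was washed off before LPS. The first count table held LPS-stimulated cells and untreated cells. Each of the 6 groups had 3 libraries. Each library held between 11450243 and 16835472 counts in the first table, and between 9464916 and 15607889 in the second. No source used here gives the LPS dose or time, and no group had rHDL without LPS. Whether replicates came from separate mice or cultures is not stated, so p-values measure the spread between these libraries, which may be technical.

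The proteasome degrades proteins tagged with ubiquitin. Its 20S core is a barrel of outer alpha rings, which gate the entry, and inner beta rings, in which Psmb6, Psmb7 and Psmb5 encode the catalytic subunits. The 19S cap binds tagged proteins, removes the ubiquitin and unfolds them with a ring of ATPases. In cells exposed to interferon, the products of Psmb9, Psmb10 and Psmb8 take the places of those of Psmb6, Psmb7 and Psmb5 in newly made cores, and the activator made by Psme1 and Psme2 can bind in place of the cap. In macrophages this form is best known for making peptides for antigen presentation. Many proteasome genes can be switched on through the antioxidant response element, a DNA word bound by the transcription factors NFE2L1 and NFE2L2 together with small MAF proteins.

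The bases just before the annotated start are shown for 5 genes: the 3 with the largest rise with rHDL (Psmd5, Psmd8 and Psmb6), a catalytic partner (Psmb5) and the activator gene that moved the other way (Psme1). The sequences are from RefSeq on GRCm38.p6, on the strand of the gene: Psmb6 at chr11:70525207-70525356 (+), Psmb5 at chr14:54617996-54618145 (-), Psmd8 at chr7:29180674-29180823 (-), Psmd5 at chr2:34870963-34871112 (-) and Psme1 at chr14:55578344-55578493 (+). Capitals mark the core of the antioxidant response element, TGACNNNGC.
Psmb6: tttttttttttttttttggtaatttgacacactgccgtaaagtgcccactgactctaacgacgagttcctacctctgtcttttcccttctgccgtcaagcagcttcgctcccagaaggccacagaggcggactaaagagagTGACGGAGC
Psmb5: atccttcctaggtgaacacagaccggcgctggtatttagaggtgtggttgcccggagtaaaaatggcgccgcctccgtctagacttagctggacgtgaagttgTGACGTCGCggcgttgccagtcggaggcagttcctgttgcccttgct
Psmd8: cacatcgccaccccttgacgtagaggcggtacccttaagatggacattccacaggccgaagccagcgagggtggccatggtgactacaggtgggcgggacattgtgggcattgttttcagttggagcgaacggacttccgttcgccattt
Psmd5: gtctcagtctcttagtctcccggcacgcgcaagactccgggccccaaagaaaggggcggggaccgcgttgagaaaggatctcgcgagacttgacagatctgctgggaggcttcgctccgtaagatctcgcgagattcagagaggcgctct
Psme1: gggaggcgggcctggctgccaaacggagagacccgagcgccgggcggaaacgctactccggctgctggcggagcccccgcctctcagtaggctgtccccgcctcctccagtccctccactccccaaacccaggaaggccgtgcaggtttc
In Psmb6 the core filled the last bases before the start, from position -9 to -1, and in Psmb5 it lay at -47 to -39. A promoter window was at hand for 35 of the 42 members. In the 250 bases before the start, on either strand, 5 of 35 held the core (14.3%): Psmb5, Psmb6, Psmc6, Psmd12 and Psmd9. The share was 11.5% over 27025 genes and 10.2% over all 32851 promoter windows. Psmd8, Psmd5 and Psme1 had none there. The CCAAT box (CCAAT) was in 14 of 35 members (40.0%), against 37.5% of all genes. The core of the interferon-stimulated response element was in 3 of 35 (8.6%), against 3.5% of all genes. These matches describe letters in the windows, and binding was not measured.

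Of the 42 members 38 passed the filter on low counts in each table and were tested. Psmb11, the core subunit known from the thymus, had 1 count in the first table. In the second it had 0 of 139174094 counts, which allows a level of up to 0.0216 CPM (counts scaled to a common library size), for counting error only. The other 3 were hardly measured, because reads that fell on more than 1 transcript row were left out of the counts. Psmd4, a ubiquitin receptor of the cap, had 0.7% of its exon bases to itself and 0 counts in both tables. Psmd2, a large scaffold subunit of the cap, had 3.0% to itself, with 3 counts over the first table and 6 over the other. Psmd10, a cap chaperone also called gankyrin, had 5.4%, with 22 counts over the first table and 42 over the other. Among the tested members Psma7 had 40.2% of its exon bases to itself and Psme2 26.6%, so their CPM stand for these parts. Psme2b is a near-identical copy of Psme2, with 711 of 716 aligned transcript bases the same (99.3%), so which of the pair its reads came from is uncertain.

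Per kilobase of exon, the median core gene was more abundant than the median cap gene in all 6 groups. In rHDL-pretreated cells under LPS the median level was 117 CPM per kb over the alpha ring genes, 125 over the beta ring genes, 100.2 over the ATPases and 83.1 over the other cap subunits. In LPS cells of the second table these levels were 121, 113, 84.4 and 61.7 CPM per kb. Psma6, an alpha ring subunit, was at 501 CPM per kb in rHDL-pretreated cells and 587 in LPS cells, where it was the highest member. Psmb6 was the highest in rHDL-pretreated cells at 520.0 CPM per kb, against 312 in LPS cells. At the low end of the ubiquitously expressed members, the cap chaperone Psmd9 had 9.94 CPM per kb in rHDL-pretreated cells and 9.09 in LPS cells. Psma8, the alpha ring subunit known from the testis, had 0.631 CPM per kb in rHDL-pretreated cells and 0.454 in LPS cells.

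**Figure D1:**
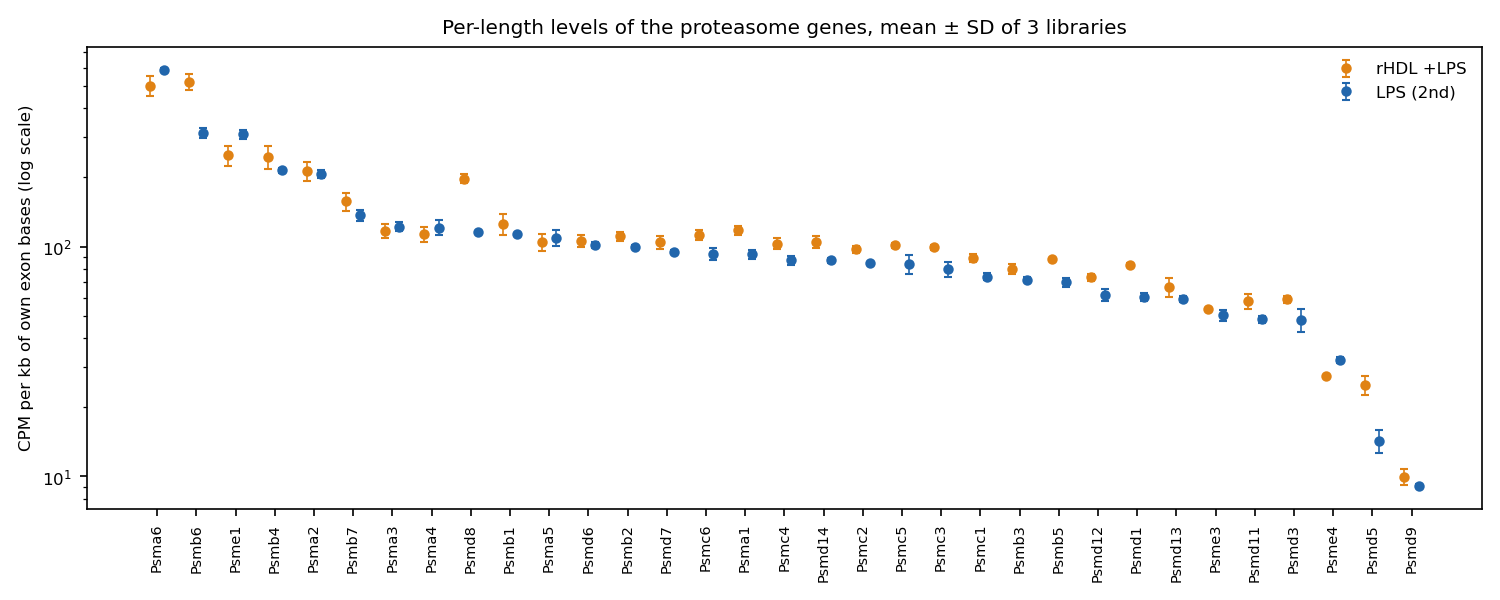
Level per kilobase of own exon bases (CPM per kb, log scale, mean ± SD of 3 libraries) of proteasome genes with at least 80% of their exon bases to themselves, in rHDL-pretreated LPS cells (orange) and LPS cells of the second table (blue); Psma8, Psmb11 and Psmc3ip are not drawn. Psma6 and Psmb6 stand above the rest in rHDL-pretreated cells, while in LPS cells Psma6 does and Psmb6 (312) is near Psme1 (308). Psmb6, Psmd8 and Psmd5 show clear gaps between the groups.

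With LPS most proteasome genes rose relative to the average gene. Against untreated cells 30 of 38 members were higher and 3 lower by edgeR at an adjusted p under 0.05, where 35.3% of all 9576 genes tested were called higher, 37.6% lower and 72.9% either way. The median log2 fold change was 0.59 over the members and -0.05 over all genes. In all 30 that were higher, every LPS library lay above every untreated library. Groups also did not overlap in 2 of the 5 members not called, and the share over all genes was not counted. The directions of the calls rest on TMM scaling, which sets the bulk of genes level between libraries. With library totals alone the median of all genes moved to -0.77, the members' median was -0.13, and 13 members were higher and 16 lower. Of all 9576 genes 1532 were then higher and 6640 lower. Under both scalings the members' median lay 0.64 above that of all genes.

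Listed cell type markers moved with LPS as well. Of the 6 tested macrophage markers 3 were higher, Cd14 (1.71 ± 0.11), Fcgr1 (0.62 ± 0.18) and Mertk (0.33 ± 0.12), and 0 lower, while by library totals Cd14 was the 1 higher and 4 were lower, Mertk among them. The summed level of the macrophage list was 26406 to 31902 CPM in LPS cells and 24028 to 29042 CPM in untreated cells, with Itgam at 0. The neutrophil list summed to 3.37 to 5.00 CPM in LPS cells and 1.49 to 1.63 CPM in untreated cells, with S100a9 at 0. S100a8, the tested gene of this list, was higher (1.46 ± 0.21, and 0.74 by library totals). Itgam had 0.1% and S100a9 0.6% of the exon bases to itself, so their counts of 0 do not show absence. The dendritic cell list summed to 2.08 to 2.61 CPM in LPS cells and 0.544 to 0.973 CPM in untreated cells, and its tested gene Xcr1 was higher (1.30 ± 0.32), though not called by library totals. Cd4, the tested gene of the T and NK cell list, was not called (-0.77 ± 0.36), and was lower by library totals. The part of these in the proteasome changes was not tested.

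In the core, 6 of 8 alpha ring genes rose with LPS (class median 0.93) and 7 of 7 tested beta ring genes (class median 0.68). Of all genes tested 35.3% were higher. By library totals Psma1 (-0.26), Psmb1 (-0.33) and Psmb3 (-0.29) of these were called lower instead, and Psma4, Psmb2 and Psmb5 were not called. The rest of those that rose stayed higher. Psma6 had 335, 428 and 404 CPM in LPS cells, against 114, 111 and 126 CPM in untreated cells. The groups lay far apart, with a log2 fold change of 1.73 ± 0.10 (SE; edgeR adjusted p = 4.98e-08; 1.01 by library totals). Psmb6, the caspase-like catalytic subunit (mm10 chromosome 11, 70525357 to 70527858, plus strand, 6 exons), had 434, 571 and 511 CPM in LPS cells, against 177, 176 and 187 CPM in untreated cells. Again no library of the groups overlapped, and the log2 fold change was 1.49 ± 0.10 (edgeR adjusted p = 1.53e-07; 0.77 by library totals). Psmb7, the trypsin-like subunit, had 139.9, 191 and 168 CPM in LPS cells and 86.0, 81.0 and 89.3 CPM in untreated cells, a log2 fold change of 0.96 ± 0.11. Psmb5, the chymotrypsin-like subunit, had 73.6, 109 and 79.5 CPM in LPS cells and 56.8, 56.5 and 65.0 CPM in untreated cells. Its log2 fold change of 0.56 ± 0.13 became -0.16 by library totals. Psma3, another alpha ring gene, had 169.9, 238 and 212 CPM in LPS cells and 83.9, 86.0 and 91.2 CPM in untreated cells, a log2 fold change of 1.25 ± 0.11. Psma8 was called lower at low counts (-0.68 ± 0.28), with groups that overlapped.

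In the cap, 5 of 6 ATPase genes rose with LPS (class median 0.55) and 7 of 9 tested non-ATPase subunits (class median 0.47). Of all genes tested 35.3% were higher. By library totals Psmc3 (-0.35), Psmd3 (-0.29), Psmd12 (-0.25) and Psmd13 (-0.37) of these were called lower instead. Psmc6 (0.19), Psmd6 (0.24) and Psmd14 (0.35) stayed higher, and the rest of those that rose were not called. Psmc4, an ATPase, had 126, 145 and 140.5 CPM in LPS cells and 89.7, 85.7 and 93.2 CPM in untreated cells, a log2 fold change of 0.62 ± 0.08 that became -0.10 by library totals. Psmd14, the deubiquitinase of the cap, had 128, 164 and 154 CPM in LPS cells and 70.1, 68.0 and 75.4 CPM in untreated cells, a log2 fold change of 1.06 ± 0.10. The ATPase Psmc1 (0.15 ± 0.07), the scaffold subunit Psmd1 (0.17 ± 0.07) and the lid subunit Psmd8 (0.26 ± 0.11) were not called, and by library totals they were called lower, at -0.57, -0.54 and -0.46. The chaperone Psmd5 fell to 35.4, 46.0 and 37.5 CPM in LPS cells, against 46.8, 48.8 and 49.7 CPM in untreated cells, a log2 fold change of -0.29 ± 0.10 (edgeR adjusted p = 0.0255). Its groups did not overlap, but the call ended without LPS library 1, LPS library 3, untreated library 2 or untreated library 3. Without each of the first 3 of these libraries 1 member was lower, and without untreated library 3, 0 were.

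The other activators had the highest class median with LPS, at 1.29, and all 5 rose, where 35.3% of all genes tested were higher. Psme1, the alpha subunit of the interferon-inducible activator (mm10 chromosome 14, 55578494 to 55581527, plus strand, 11 exons), had 298, 416 and 372 CPM in LPS cells, against 119, 117 and 119.9 CPM in untreated cells. Its groups lay far apart, with a log2 fold change of 1.61 ± 0.11 (edgeR adjusted p = 2.06e-07). Its partner Psme2 had 4.80, 5.80 and 5.89 CPM in LPS cells and 2.22, 2.42 and 2.04 CPM in untreated cells from its own bases, a log2 fold change of 1.29 ± 0.18. Psme2b, whose reads may be those of Psme2, had 189, 273 and 238 CPM in LPS cells and 40.2, 39.5 and 38.1 CPM in untreated cells, a log2 fold change of 2.57 ± 0.12. Psme3, a nuclear activator, had 125, 126 and 132 CPM in LPS cells and 87.6, 87.7 and 91.5 CPM in untreated cells. Its log2 fold change of 0.52 ± 0.07 became -0.19, called lower, by library totals. Psme4, a large nuclear activator, had 229, 197 and 219 CPM in LPS cells and 129, 131 and 121 CPM in untreated cells, a log2 fold change of 0.76 ± 0.08 that became 0.04, not called, by library totals. Psmc3ip, which is no subunit, was lower (-1.06 ± 0.34), with 0.556 to 1.21 CPM in LPS cells and 1.58 to 2.65 CPM in untreated cells.

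**Figure D2:**
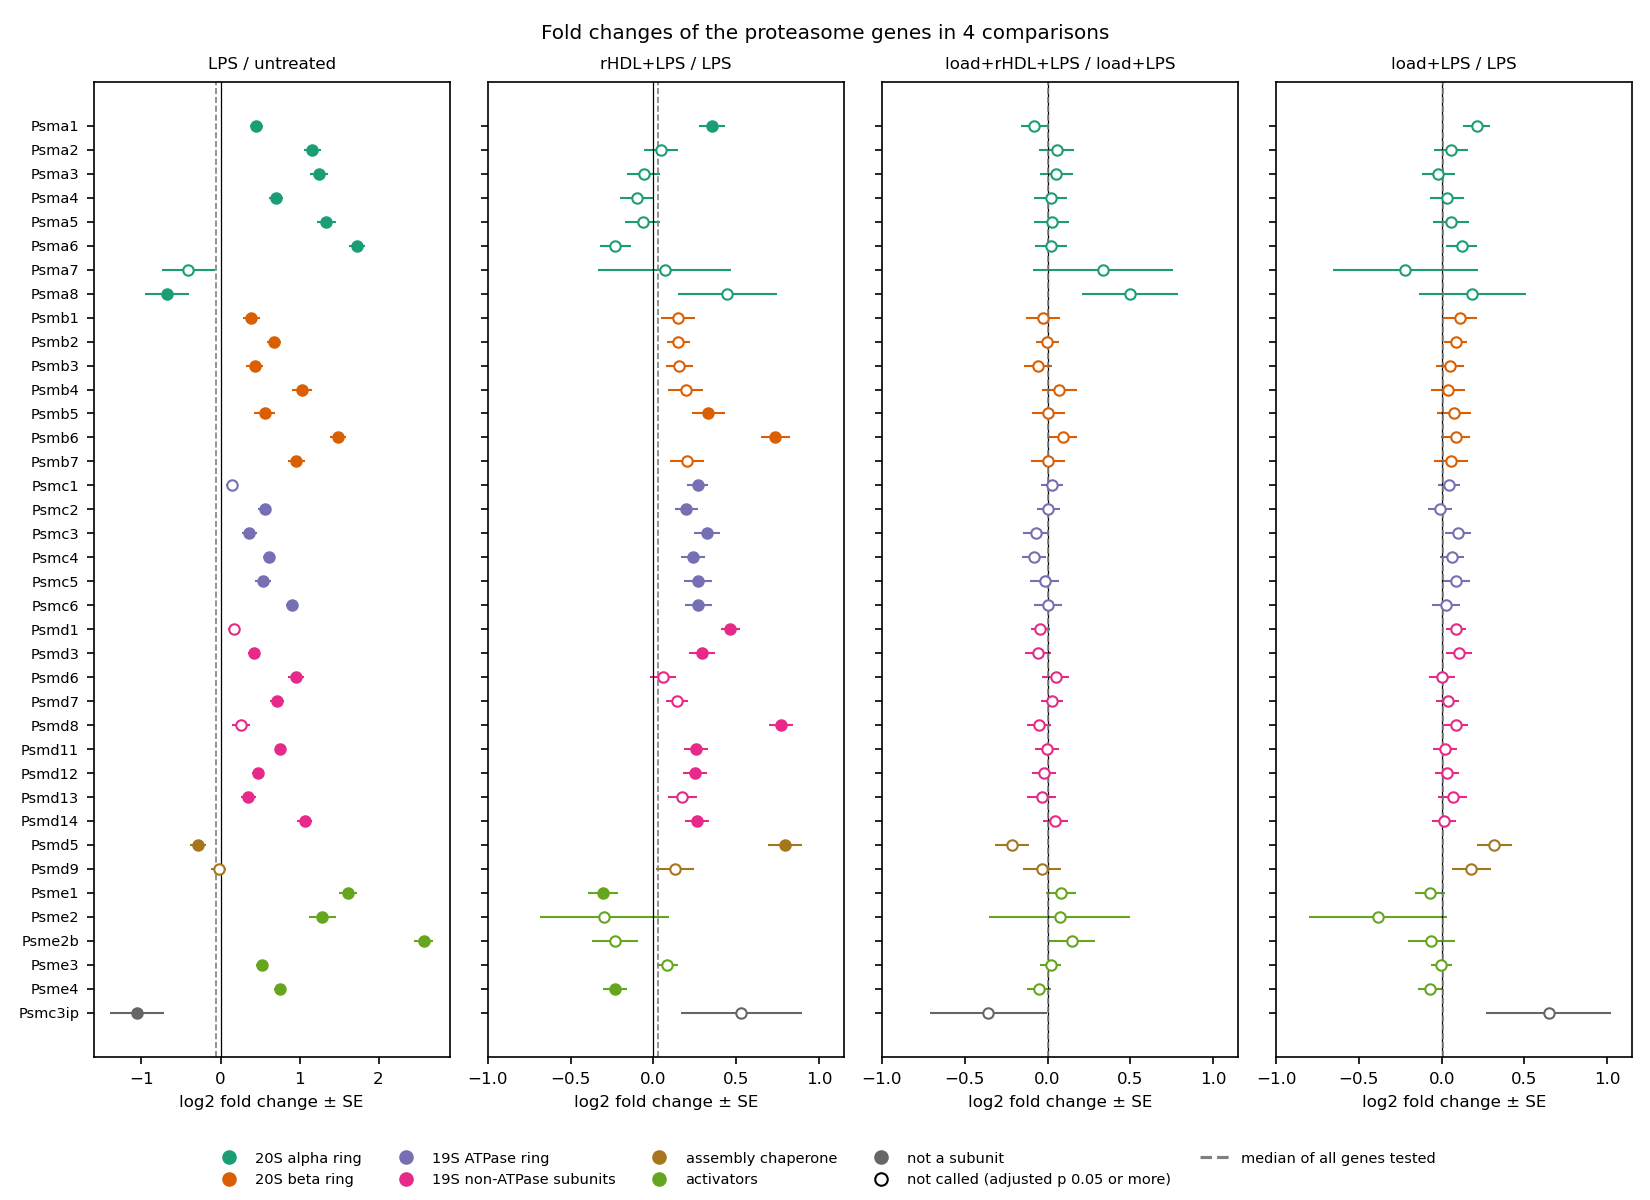
Log2 fold change ± SE of the 38 tested members, 1 per row, in 4 comparisons; the first panel has a wider axis than the other 3. Colours give the class, filled points are called by edgeR, open points are not, and the dashed line is the median of all genes tested. With LPS 30 members are called to the right (13 by library totals, where 16 are lower), with rHDL under LPS 16 are, and with rHDL after loading or with loading alone no point is filled.

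Pretreatment with rHDL raised Psmd5, Psmd8 and Psmb6 the most of the members and lowered Psme1 and Psme4. Under LPS, 16 of 38 members were higher and 2 lower in rHDL-pretreated cells than in cells with LPS alone by edgeR at an adjusted p under 0.05, where 18.1% of all 8965 genes tested were called higher, 18.4% lower and 36.5% either way. All 18 had groups that did not overlap, as did 8 of the 20 not called, and the share over all genes was not counted. The median log2 fold change was 0.20 over the members and 0.03 over all genes. With library totals the median of all genes moved to 0.14, and 23 members were higher and 0 lower. Of all 8965 genes 2507 were then higher and 1273 lower. The count of higher members was 9 without LPS library 1 and 10 without rHDL library 1. The count of lower members was 0 without LPS library 1, rHDL library 2 or rHDL library 3, and 4 without rHDL library 1. Psma1, Psmb6, Psmc1, Psmc3, Psmd1, Psmd5 and Psmd8 were called as higher in all 14 alternatives.

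Markers of the macrophages moved with rHDL. Of 8 listed macrophage markers 7 were in the files and 6 were tested, and Csf1r, Fcgr1, Lyz2 and Mertk were lower while Cd68 was higher. Their summed level was 9359 to 11741 CPM in rHDL-pretreated cells and 17846 to 19478 CPM in LPS cells, and Itgam, with 0.1% of its exon bases to itself, was at 0 in every library. Markers of neutrophils summed to 1.35 to 2.65 CPM in rHDL-pretreated cells and 7.17 to 7.56 CPM in LPS cells, with S100a9 at 0. Markers of T and NK cells summed to 3.09 to 3.35 CPM in rHDL-pretreated cells and 3.19 to 4.47 CPM in LPS cells, with Cd8a at 0, and those of dendritic cells to 1.58 to 2.78 CPM in rHDL-pretreated cells and 2.18 to 2.45 CPM in LPS cells. In these groups Pax5 of the B cell list, Pecam1 of the stromal list and Hbb-bs and Mcpt4 of the erythroid and mast cell list were at 0. Pecam1 had 1.7% of its exon bases to itself, Hbb-bs 1.4%, Cd8a 1.0% and S100a9 0.6%, so their counts of 0 do not show absence. The part of any of these marker changes in the proteasome changes was not tested. In bulk RNA fewer cells of a type and less RNA per cell cannot be told apart.

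The 3 largest rises with rHDL were a chaperone, a cap subunit and a catalytic core subunit. Psmd5, a chaperone that holds part of the ATPase ring before the cap is complete (mm10 chromosome 2, 34852089 to 34870962, minus strand, 10 exons), had 45.6, 55.0 and 51.9 CPM in rHDL-pretreated cells, against 27.0, 33.1 and 27.5 CPM in LPS cells. Its log2 fold change was 0.79 ± 0.10 (edgeR adjusted p = 2.85e-05). Psmd8, a subunit of the lid of the cap (mm10 chromosome 7, 29174187 to 29180673, minus strand, 7 exons), had 314, 290.2 and 291 CPM in rHDL-pretreated cells, against 172, 175 and 177 CPM in LPS cells, a log2 fold change of 0.77 ± 0.07 (edgeR adjusted p = 1.92e-06). Psmb6 had 587, 525 and 505 CPM in rHDL-pretreated cells, against 309.5, 339.8 and 321 CPM in LPS cells, a log2 fold change of 0.74 ± 0.09 (edgeR adjusted p = 1.55e-05). In each of the 3 every rHDL library was above every LPS library. The authors' deposited table for this comparison, filtered at a ratio of 1.5, lists 1609 genes, and the members in it are these 3.

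All 6 ATPase genes of the cap were higher with rHDL, by 0.20 to 0.32 on the log2 scale. So were 6 of 9 tested non-ATPase subunits, 1 of 8 alpha ring genes and 2 of 7 beta ring genes, where 18.1% of all genes tested were. Of the ATPase genes 2, Psmc1 and Psmc3, were called without LPS library 1 or rHDL library 1, 4 without LPS library 3 or rHDL library 2, and 5, all but Psmc2, without LPS library 2 or rHDL library 3 and by DESeq2. The difference between the classes was not tested, and by library totals the other 5 tested beta ring genes were called higher too. Psmd1 had 265, 274 and 273 CPM in rHDL-pretreated cells and 189, 205 and 194 CPM in LPS cells, a log2 fold change of 0.46 ± 0.06 (edgeR adjusted p = 2.35e-05). Psmc3, an ATPase, had 165, 164 and 158 CPM in rHDL-pretreated cells and 119.9, 139 and 131 CPM in LPS cells, a log2 fold change of 0.32 ± 0.08. Both kept their calls with any single library left out. Psmc4 had 157, 145 and 142 CPM in rHDL-pretreated cells and 123, 132 and 121 CPM in LPS cells (0.24 ± 0.07), and its call ended without LPS library 1, LPS library 3 or rHDL library 1. Psmd14 had 173, 157 and 155 CPM in rHDL-pretreated cells and 139, 132 and 132 CPM in LPS cells (0.26 ± 0.07), and its call ended without rHDL library 1. Psmd3, a lid subunit, had 123, 131 and 125 CPM in rHDL-pretreated cells and 94.5, 116 and 98.7 CPM in LPS cells (0.29 ± 0.08), and its call ended without LPS library 1.

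In the core besides Psmb6, rHDL raised Psma1 and Psmb5. Psma1, an alpha ring subunit, had 156, 142 and 146 CPM in rHDL-pretreated cells and 109.5, 118 and 119.8 CPM in LPS cells, a log2 fold change of 0.35 ± 0.08 (edgeR adjusted p = 0.00301). Psmb5 had 68.0, 66.1 and 67.1 CPM in rHDL-pretreated cells and 52.3, 55.9 and 51.6 CPM in LPS cells (0.33 ± 0.10; edgeR adjusted p = 0.0162), and its call ended without LPS library 1 or LPS library 3. Psmb7 had 168, 143 and 146 CPM in rHDL-pretreated cells and 136, 124 and 138 CPM in LPS cells. These did not overlap, but its 0.20 ± 0.10 was not called, while it was by library totals (0.32) and with the replicate number of the labels as a block in the fit. Psma2, Psma3, Psma4, Psma5 and Psma6, the other alpha ring genes with all or most bases measured, were not called and lay between -0.23 ± 0.09 for Psma6 and 0.05 ± 0.10 for Psma2. Psma6 was called lower with the replicate number as a block, with the 2 groups alone in the fit and without rHDL library 1. Psma3 had 179, 157 and 162 CPM in rHDL-pretreated cells and 179, 164 and 176 CPM in LPS cells, which overlapped (-0.06 ± 0.10; 0.06 by library totals).

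Of the other activators 0 were higher and 2 lower with rHDL, where 18.1% of all genes tested were higher and 18.4% lower. Psme1 fell to 270.2, 226 and 230.4 CPM in rHDL-pretreated cells, against 314, 287 and 297 CPM in LPS cells, a log2 fold change of -0.30 ± 0.09 (edgeR adjusted p = 0.0164). Psme4 had 174, 175 and 177 CPM in rHDL-pretreated cells, against 214, 203 and 202 CPM in LPS cells, a log2 fold change of -0.23 ± 0.07 (edgeR adjusted p = 0.0215). Both calls ended by library totals and without LPS library 1, rHDL library 2 or rHDL library 3. Psme3 had 139, 141 and 139 CPM in rHDL-pretreated cells and 125, 139 and 131 CPM in LPS cells (0.08 ± 0.06, not called). Psme2 had 0.948, 0.696 and 0.978 CPM in rHDL-pretreated cells and 1.06, 1.54 and 0.545 CPM in LPS cells (-0.30 ± 0.39, not called), a level too low to bound a change closely. Psme2b was at -0.23 ± 0.14, not called, but was called lower with the replicate number as a block and without rHDL library 1.

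**Figure D3:**
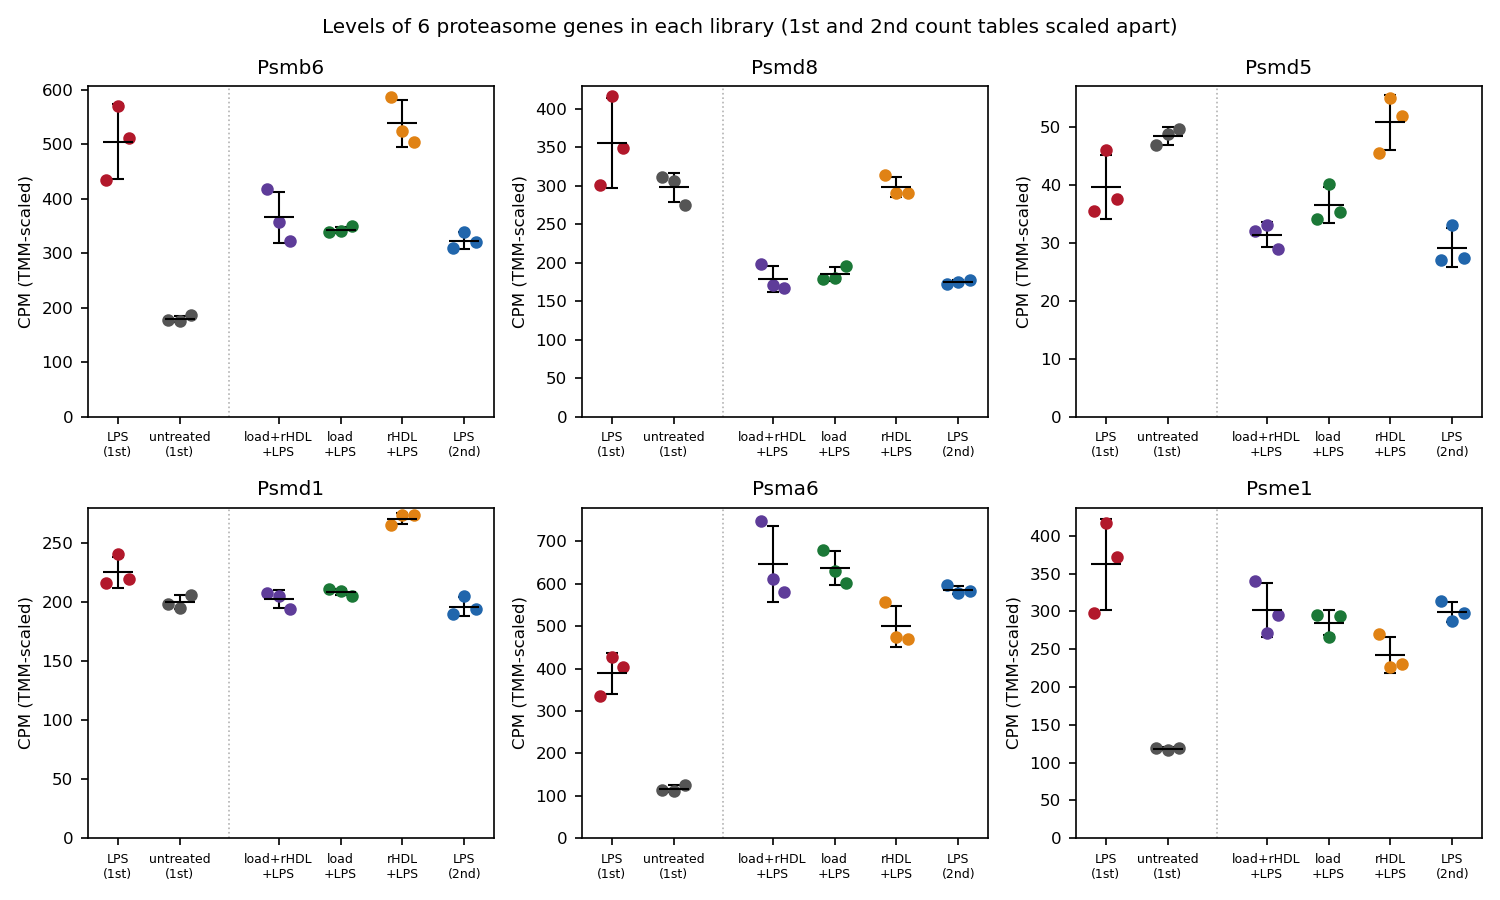
CPM (TMM-scaled within each table) of 6 members in every library, with the group mean as a dash and the SD as bars; the dotted line parts the first table, left, from the second, which was scaled apart. In Psmb6, Psmd8, Psmd5 and Psmd1 all 3 rHDL libraries lie above every other library of the second table, and in Psma6 and Psme1 they lie below those of LPS cells.

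The interferon-inducible subunits, left out of the 42 members, rose with LPS: Psmb9 by 2.54 ± 0.14, Psmb10 by 2.16 ± 0.16 and Psmb8 by 1.92 ± 0.11 on the log2 scale. With rHDL Psmb9 fell to 122, 78.7 and 98.0 CPM in rHDL-pretreated cells, against 195, 159.6 and 186 CPM in LPS cells (-0.85 ± 0.18; edgeR adjusted p = 0.00157). Psmb10 fell as well (-0.73 ± 0.18; edgeR adjusted p = 0.00529), while Psmb8 was not called (-0.38 ± 0.15; edgeR adjusted p = 0.0675). Ratios of counts within a library do not depend on the scaling of libraries. The ratio of Psmb6 to Psmb9 counts was 4.81, 6.67 and 5.15 in rHDL-pretreated cells, against 1.59, 2.13 and 1.73 in LPS cells. In the first table it was 3.08, 2.71 and 2.61 in LPS cells, against 5.51, 5.58 and 6.23 in untreated cells. So the ratio was lower with LPS than without, and higher with rHDL than with LPS alone.

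The other catalytic pairs ran the same way. Psmb7 over Psmb10 was 0.495, 0.626 and 0.594 in rHDL-pretreated cells, against 0.268, 0.321 and 0.299 in LPS cells. Psmb5 over Psmb8 was 0.135, 0.190 and 0.173 in rHDL-pretreated cells, against 0.0905, 0.115 and 0.0934 in LPS cells. Psmb6 also gained on Psma6, a core gene outside the exchange, with 1.06, 1.11 and 1.08 in rHDL-pretreated cells, against 0.518, 0.587 and 0.551 in LPS cells, while in the first table this ratio was 1.30, 1.33 and 1.27 in LPS cells, against 1.55, 1.59 and 1.48 in untreated cells. Over Psmb2, a beta ring subunit without catalytic activity, Psmb6 had ratios of 6.05, 5.54 and 5.65 in rHDL-pretreated cells, against 3.77, 4.00 and 3.73 in LPS cells. In the first table this ratio was 4.73, 5.81 and 4.74 in LPS cells, against 3.05, 2.91 and 2.76 in untreated cells, so it was higher with LPS, where the ratios of Psmb6 to Psmb9 and to Psma6 were lower. In all of these comparisons the groups did not overlap, and each gave p = 0.1 in a two-sided exact permutation test, the smallest p that 3 libraries against 3 allow. In loaded cells Psmb6 over Psmb9 was 1.77, 2.41 and 1.88 with rHDL, against 1.82, 2.46 and 1.96 without it, and these overlapped (p = 0.7, two-sided exact permutation test).

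**Figure D4:**
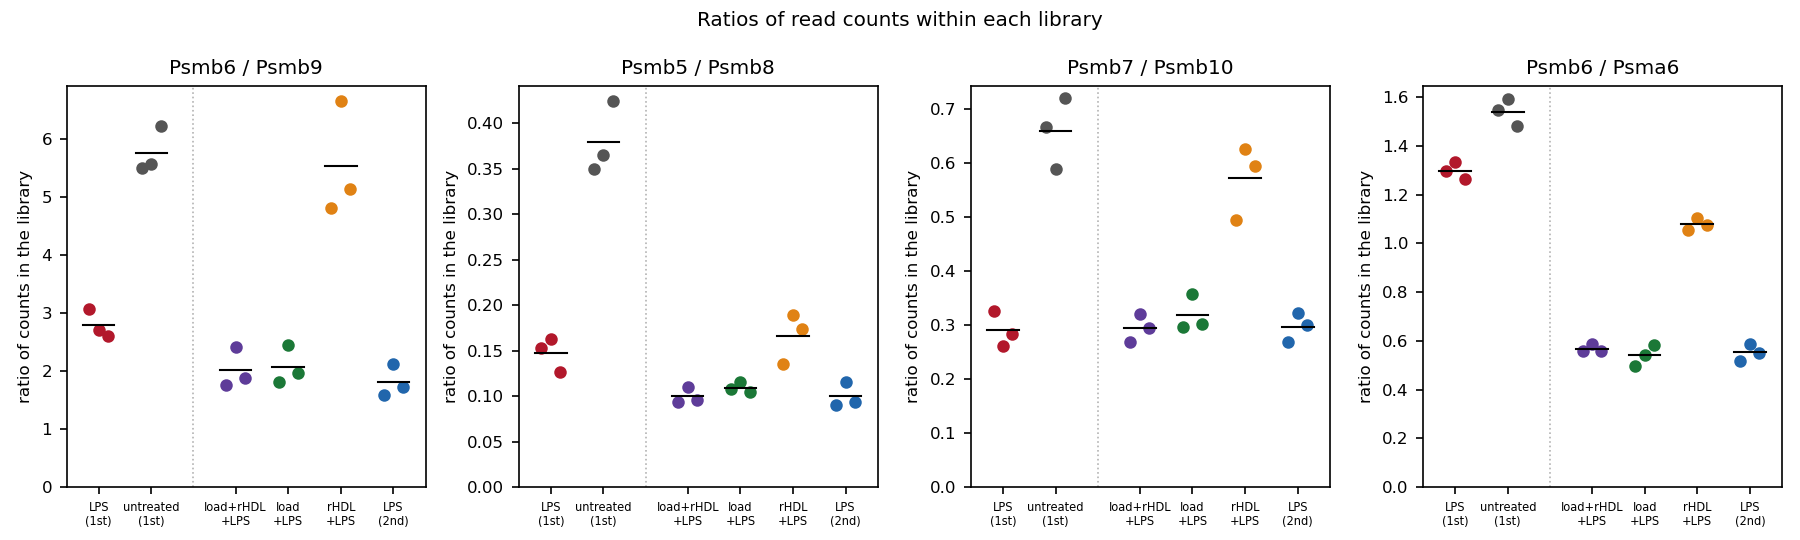
Ratios of read counts within each library for 3 constitutive catalytic subunits over their interferon-inducible counterparts, and for Psmb6 over Psma6; each point is a library and each dash a group mean. In the first table all 4 ratios are lower in LPS than in untreated cells. In the second they are higher in rHDL-pretreated than in LPS cells, and the loaded groups overlap with each other. Psmb6 over Psma6 is 1.27 to 1.33 in LPS cells of the first table and 0.518 to 0.587 in those of the second.

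After cholesterol loading no member was called for rHDL. In loaded cells 0 of 38 members differed with rHDL by edgeR at an adjusted p under 0.05, where 1.02% of all 8965 genes did, 0.424% higher and 0.591% lower. Of the 38, 0 had an unadjusted p under 0.05, and DESeq2 called 0. The median log2 fold change was 0.003. Psmb6 had 417, 357 and 323 CPM in loaded cells with rHDL, against 339, 341 and 349.9 CPM in loaded cells without it, 0.09 ± 0.09 on the log2 scale. Psmd8 had 198, 171 and 167 CPM in loaded cells with rHDL, against 179.5, 180.2 and 196 CPM in loaded cells without it, -0.05 ± 0.07. In both genes the groups overlapped. Psmd5 had 32.1, 33.2 and 29.0 CPM in loaded cells with rHDL, against 34.2, 40.2 and 35.3 CPM in loaded cells without it. These did not overlap, and its -0.22 ± 0.10 was not called (edgeR adjusted p = 0.437). Psme1 had 339.9, 271 and 295 CPM in loaded cells with rHDL and 295, 266 and 294 CPM in loaded cells without it, 0.08 ± 0.09. The macrophage markers summed to 14928 to 18824 CPM in loaded cells with rHDL and 17232 to 18840.0 CPM in loaded cells without it. The authors' deposited table for this comparison lists 47 genes and 0 members.

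The difference between the rHDL effects, in loaded cells minus in cells not loaded, was tested as a term of its own. Of 38 members 8 were lower and 1 higher by edgeR, where 14.2% of all genes tested were lower, 16.0% higher and 30.2% either way. The median was -0.20 over the members and -0.03 over all genes. Library totals moved that of all genes to -0.20, with 21 members lower and 0 higher. Of all 8965 genes 2124 were then lower and 1016 higher. With the replicate number as a block 13 were lower and 3 higher, including all 9 called without it. Psmd5 differed by -1.01 ± 0.14 (edgeR adjusted p = 0.000147), Psmd8 by -0.82 ± 0.10 (edgeR adjusted p = 5.13e-05), Psmb6 by -0.64 ± 0.12 (edgeR adjusted p = 0.00135) and Psmd1 by -0.51 ± 0.08 (edgeR adjusted p = 0.000381). With Psma1 (-0.43 ± 0.11) these are the 5 that kept their calls with any single library left out. Psmc3 (-0.39 ± 0.11) lost its call without LPS library 1 or loaded library 2. Psmd3 (-0.35 ± 0.11) and Psmc4 (-0.32 ± 0.10) both lost theirs without LPS library 1 or 3, loaded library 2 or 3, or loaded rHDL library 3. Psmd3 also lost its call without rHDL library 2, and Psmc4 without rHDL library 1 or loaded rHDL library 2. Psme1 was higher (0.39 ± 0.13; edgeR adjusted p = 0.0348), and its call ended by library totals and without LPS library 1, LPS library 3, rHDL library 2, rHDL library 3, loaded library 2 or loaded rHDL library 1. The count of lower members was 5 without LPS library 1 or loaded library 2 and 19 without loaded rHDL library 1.

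Loading alone, under LPS and without rHDL, gave 0 called members by edgeR, where 8.57% of all genes tested were called, 3.99% higher and 4.57% lower. An unadjusted p under 0.05 was found for 2 of 38, and DESeq2 called 0. The median log2 fold change was 0.06. The 2 were Psmd5, with 34.2, 40.2 and 35.3 CPM in loaded cells against 27.0, 33.1 and 27.5 CPM in LPS cells (0.32 ± 0.10; edgeR adjusted p = 0.0771), and Psma1, with 132, 134 and 137 CPM in loaded cells against 109.5, 118 and 119.8 CPM in LPS cells (0.21 ± 0.08; edgeR adjusted p = 0.127). In both the groups did not overlap. Psmd5 was called without LPS library 2, and Psma1 by library totals. The rHDL effect, the loading effect and the difference share the LPS libraries of the second table.

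Across the members larger rises with LPS tended to go with smaller rises with rHDL, and these changes have no library in common. Under TMM scaling most members were positive in each, 33 of 38 with LPS and 30 of 38 with rHDL. Of all genes tested 4552 of 9576 were positive with LPS and 4770 of 8965 with rHDL. By library totals 15 members were positive with LPS and 33 with rHDL. Over the 38 members the log2 fold changes with LPS and with rHDL gave Pearson r = -0.57 and Spearman rho = -0.56, a description across genes, which are not independent. The 38 include Psmc3ip (0.53 with rHDL, -1.06 with LPS) and Psma8 (0.45 with rHDL, -0.68 with LPS), both at low counts, and r without them was not computed. Over the 8765 genes tested in both tables r was -0.25 and rho -0.26. Psmd8 (0.77 with rHDL, 0.26 with LPS) and Psmd1 (0.46 with rHDL, 0.17 with LPS) rose with rHDL and were not called with LPS under TMM scaling. Psma6 (-0.23 with rHDL, 1.73 with LPS) rose with LPS and was not called with rHDL in the main fit. It was called with the replicate block, with the 2 groups alone in the fit and without rHDL library 1. Psmb6 was high in both (0.74 with rHDL, 1.49 with LPS). Of the 30 members higher with LPS under TMM scaling (13 by library totals), 12 were higher with rHDL too. Of the rest 2 were lower (Psme1 and Psme4) and 16 were not called. Over all genes tested with rHDL 18.1% were higher and 18.4% lower, and the shares among all genes higher with LPS were not counted. Psmd5 was lower with LPS and higher with rHDL, although its LPS call did not hold with single libraries left out.

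**Figure D5:**
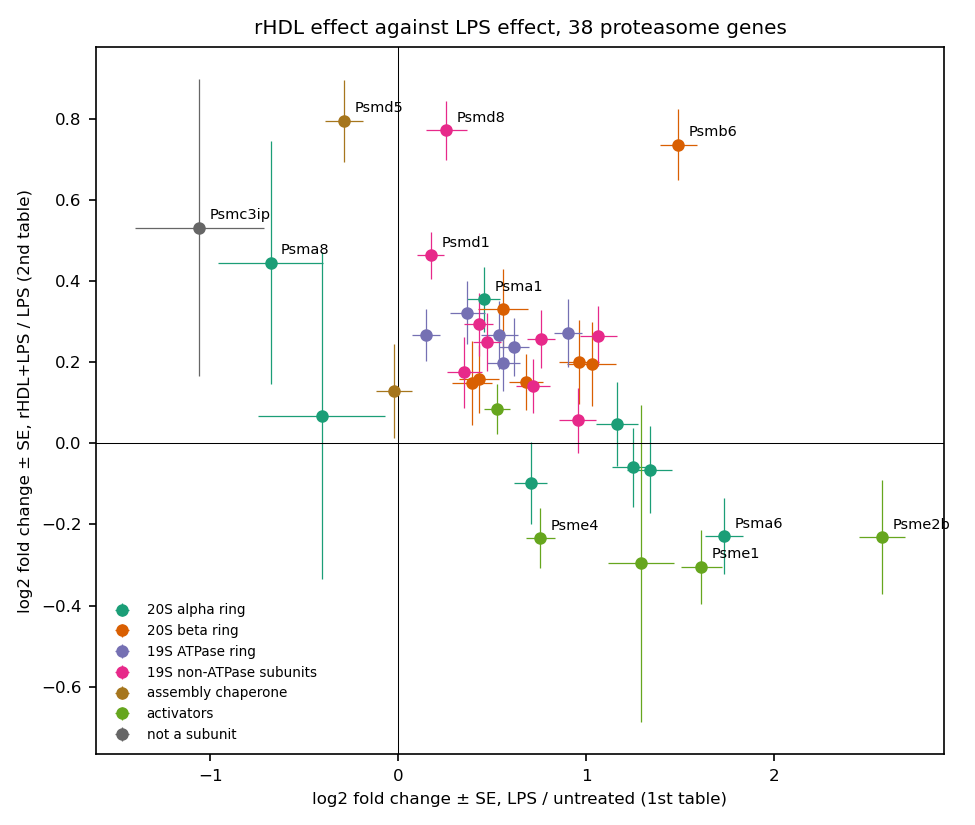
Log2 fold change ± SE of the 38 tested members with LPS (x axis, first table, TMM scaling) and with rHDL under LPS (y axis, second table), coloured by class. Psmb6 lies alone at the upper right, Psmd5, Psmd8 and Psmd1 lie high near 0 on the x axis, and Psme1, Psme2b and Psma6 lie at the lower right.

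Genes that work with the proteasome were counted from 3 further lists, with TMM scaling. Over all genes tested 35.3% were higher and 37.6% lower with LPS, and 18.1% higher and 18.4% lower with rHDL. Of 13 genes of assembly and the cap outside the naming rule 11 were tested, of which 6 rose and 0 fell with LPS, and 2 rose and 0 fell with rHDL, a share near that of all genes. With rHDL these were Adrm1, a ubiquitin receptor of the cap, with 77.6, 81.2 and 73.8 CPM in rHDL-pretreated cells against 59.2, 65.9 and 53.9 CPM in LPS cells (0.38 ± 0.08), and Txnl1, a thioredoxin bound to the cap, with 267, 255 and 267 CPM in rHDL-pretreated cells against 178, 180.0 and 185 CPM in LPS cells (0.54 ± 0.07). Pomp, the maturation factor of the core, was at -0.03 ± 0.10 with rHDL, not called, and rose with LPS (0.77 ± 0.13). Of 13 tested ubiquitin genes and shuttles 8 rose and 2 fell with LPS, and 4 rose and 1 fell with rHDL. The 4 were Sqstm1, an autophagy receptor measured on 5.6% of its exon bases (1.44 ± 0.07), Vcp, an unfoldase (0.50 ± 0.08), and the shuttles Ubqln2 (0.49 ± 0.07) and Ubqln4 (0.45 ± 0.10), and the fall was Zfand5, a proteasome-binding zinc finger protein (-0.48 ± 0.07).

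Of the regulators of proteasome transcription 11 were tested with LPS, of which 6 rose and 2 fell, and 10 with rHDL, of which 3 rose and 0 fell. Over all genes tested 35.3% rose and 37.6% fell with LPS, and 18.1% rose and 18.4% fell with rHDL. By library totals LPS gave 1 higher and 6 lower of the genes of assembly and the cap, and 1 and 6 of the ubiquitin genes and shuttles. Of the regulators 2 were higher and 5 lower, and of all 9576 genes 1532 were higher and 6640 lower. The 3 that rose with rHDL were the small MAF genes Maff, with 142, 146 and 147 CPM in rHDL-pretreated cells against 50.8, 63.5 and 52.1 CPM in LPS cells (1.38 ± 0.10; edgeR adjusted p = 1.61e-07), and Mafg (0.72 ± 0.12), and Bach1, a repressor that binds the same element (0.56 ± 0.12). Nfe2l2 was at 0.06 ± 0.06 with rHDL, not called, and at 0.50 ± 0.07 with LPS. Nfe2l1 had 5.0% of its exon bases to itself and 27 counts in the second table, too few to test. Of the 14 members that rose with rHDL and had a promoter window, 4 held the antioxidant response element core printed above for Psmb6 and Psmb5 (28.6%). Among 17 other tested members 1 held it (5.9%), and 11.5% of all genes did. The CCAAT box was in 4 of these 14 (28.6%) and 7 of the 17 (41.2%), and the interferon-stimulated core in 0 and 2 (11.8%). Psmb5, Psmc6 and Psmd12, which hold the antioxidant core, lost their rHDL calls without LPS library 1. Whether this element has a part in the rHDL changes was not tested. After loading, 0 genes of these 3 lists were called for rHDL by edgeR, with 0, 1 and 1 at an unadjusted p under 0.05. Maff then had 48.7, 46.1 and 41.1 CPM in loaded cells with rHDL, against 38.7, 48.2 and 47.9 CPM in loaded cells without it (0.01 ± 0.10).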

How the data were processed

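RNA of 18 macrophage libraries was sequenced after poly-dT selection with NEB Ultra kits, per the labels' protocols. The authors' deposited count tables give read counts for 32850 transcript rows, and cutadapt, HISAT2, Subread featureCounts, DESeq2 and the build mm10 are named in the submitters' processing notes. Of these rows 6698 share every exon base with another row, and nearly all of them had 0 counts, so genes with overlapping isoforms were partly counted. The deposited Length column, the summed exon length of a row in bases, was used only to find rows that share no exon base. The authors' deposited comparison tables hold log2 fold changes, adjusted p-values and ratios of RPKM, and were used only where named.

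Rows were summed per symbol. Each table was filtered with filterByExpr (minimum count 10), scaled by TMM and fitted with edgeR 4.0.16 quasi-likelihood tests in R 4.3.3, with p-values adjusted by Benjamini and Hochberg over all genes of the table and a threshold of 0.05. SE is the log2 fold change divided by the root of F. CPM are TMM-scaled within a table, and levels per kb use own exon bases of genes with at least 80% of them. The procedure was tested on simulated data. Alternatives were DESeq2 1.42.0, other scaling, other filters, a replicate block, unshared rows only, the 2 groups alone and leaving out each library. Between libraries of a group, counts differed by more than sampling noise, so none was counted as a duplicate. Limits from counts cover counting error only.

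Members named with values were, in each comparison, the 3 called with the largest rise and the 3 with the largest fall at a mean log2 CPM of at least 3, the catalytic subunits, the activators, Psmd4, Psmd14, Psma3 and Psmc4, members that failed the filter, and those called for the difference. From the other lists at most 2 genes a direction were due. Others named were chosen after their values were seen. The members and lists were chosen with earlier results of these data known.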

Additional observations from a re-analysis of the deposited data

Results flagged for a closer look

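By the interaction term in edgeR, the rHDL effect under LPS differed with loading in 9 of 38 members, at an adjusted p under 0.05. Of all 8965 genes tested 30.2% differed, 14.2% lower and 16.0% higher. With any single library left out, 5 of the 9 kept their calls: Psmd5, Psmd8, Psmb6, Psmd1 and Psma1. The effect in loaded cells minus that in cells not loaded was -1.01 for Psmd5, -0.82 for Psmd8, -0.64 for Psmb6, -0.51 for Psmd1, -0.43 for Psma1, -0.39 for Psmc3, -0.35 for Psmd3 and -0.32 for Psmc4 on the log2 scale. For Psme1 it was 0.39, the opposite sign.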

How the results depend on the processing

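By library totals, LPS gave 13 members higher and 16 lower, where 1532 and 6640 of all 9576 genes were. Psmb5 was then at -0.16, Psmc4 at -0.10 and Psme3 at -0.19. With rHDL, library totals gave 0 members lower, where 1273 of all 8965 genes were, and Psma3 at 0.056. Rows with no shared exon base gave 1 lower with rHDL, and 0 higher for the difference, of 31 members tested. Psme1, with 99.6% of its exon bases to itself, was not tested there. For the difference, library totals gave 0 higher and 21 lower, where 1016 and 2124 of all 8965 genes were, with Psma3 at -0.062. After loading, library totals gave Psma3 -0.0061, Psmb5 -0.054, Psmb7 -0.057, Psmd14 -0.0098 and Psme3 -0.035. With loading, 1 member was higher by library totals and with the 2 groups alone in the fit, and library totals gave Psma3 0.060, Psme1 0.0086, Psme3 0.075 and Psme4 0.0079. With the replicate number as a block, rHDL gave 4 lower, the difference 3 higher and 13 lower, loading 1 higher, and Psmb7 after loading -0.0042. The block ended no call of a member, and it added Psma6, Psmb4, Psmb7, Psmd7 and Psme2b with rHDL, Psma6, Psmb5, Psmc1, Psmd11, Psmd12, Psmd14 and Psme2b for the difference, and Psmd5 with loading. Deviations of same-numbered libraries correlated at -0.0765 to 0.0741 in the first table, and at -0.0302 to 0.436 in the second, over 0.1 in 13 of 18 pairs there. Of the pairs of groups, only rHDL with loaded rHDL cells had all 3 over 0.1. On average 9 of 12 libraries of the second table correlated best with their own number, and 1 of 6 of the first. This is a hint of pairing from the data for the second table, while the labels give only a number. The cause of these shifts was not tested beyond the scaling itself.

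Leaving out a library at a time gave LPS 0 to 3 lower, rHDL 9 to 15 higher and 0 to 4 lower, the difference 0 to 2 higher and 5 to 19 lower, and loading 0 to 1 higher. Values that crossed 0 were not called. After loading they ranged Psma3 -0.085 to 0.12, Psmb5 -0.14 to 0.10, Psmb6 -0.0094 to 0.18, Psmb7 -0.14 to 0.081, Psmd14 -0.028 to 0.10, Psme1 -0.0078 to 0.16, Psme2 -0.17 to 0.44, Psme3 -0.021 to 0.043, Psme4 -0.12 to 0.033. Psme2 ranged -0.59 to 0.11 with rHDL, -0.035 to 0.75 for the difference, -0.75 to 0.019 with loading, Psma3 -0.026 to 0.19 for the difference, -0.065 to 0.023 with loading, and Psme3 -0.045 to 0.036 with loading. Where a group was left with 2 libraries, the spread was pooled over groups. Depth limits Psme2, Psma8, Psmc3ip and Psma7, whose levels in the second table are a few CPM or less.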
